A study of Mus musculus with 12 samples.

Results

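Described here are 10 mouse genes of the defence of a cell against lipid peroxides, namely Gpx4, Slc7a11, Slc3a2, Gclc, Gclm, Gss, Gsr, Aifm2, Dhodh and Gch1. They were taken by symbol from a table of 34745 genes, where each of the 10 had 1 row. RNA sequencing was performed on 12 libraries of MLE-12 cells, a mouse line of alveolar type II (AT II) lung epithelium, in 4 groups of 3. The LPS group received 100 ng/mL LPS, a bacterial endotoxin, in 21% oxygen. The LPS + M2-Exo group received the same LPS and oxygen and 10 µg/mL M2-Exo, which are exosomes of MH-S alveolar macrophages that had been turned to the M2 state with IL-4. The Hyp group was kept in 85% oxygen without LPS, and the Hyp + M2-Exo group in the same oxygen with 10 µg/mL M2-Exo. By the paper's methods, M2-Exo came after the LPS or hyperoxia exposure, and how long they were present in the sequenced cultures is not given there. The labels give 24 h for all 12 libraries. No library of untreated cells was among them, so M2-Exo was compared within each injury, and the injuries were compared with each other. Hyp and LPS differed in both oxygen and LPS, and these cannot be told apart, nor can a difference in culture or library batch between the injuries. The labels do not say that the 3 libraries of a group came from separate cultures, so the p-values measure only the spread between these libraries.

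GPX4 is a selenoprotein that reduces lipid hydroperoxides in membranes with glutathione, and its loss is a defining route to ferroptosis, an iron-dependent cell death. Glutathione is built from cysteine, which enters the cell as cystine through system xc-, a pair of SLC7A11, the transporter itself, and SLC3A2, the heavy chain that brings it to the membrane. Glutamate-cysteine ligase, with the catalytic subunit GCLC and the modifier subunit GCLM, makes the first bond, glutathione synthetase (GSS) makes the second, and glutathione reductase (GSR) returns oxidised glutathione to its reduced form. AIFM2 (also FSP1) and DHODH reduce ubiquinone at the plasma membrane and in mitochondria, and GCH1 is the rate-limiting enzyme of tetrahydrobiopterin synthesis. These last genes act beside GPX4 and do not need glutathione.

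Total counts lay between 18700207 and 19185116 in LPS, 16021833 and 18505941 in LPS + M2-Exo, 22035335 and 24074616 in Hyp, and 20231632 and 23414010 in Hyp + M2-Exo. The first principal component held 82.1% of the variance and separated the injuries, and LPS + M2-Exo replicate 2 lay apart from its group on the second component and Hyp + M2-Exo replicate 3 from its group on the third. The line was checked against 20 lung epithelial markers. Their summed level was 1206 to 1282 CPM (counts scaled to a common depth with TMM factors) in the LPS groups and 1095 to 1229 CPM in the Hyp groups. Krt19, Abca3, Nkx2-1 and Krt8 were the most abundant in LPS. Of the 20, 12 were above 1 CPM in LPS, 13 in LPS + M2-Exo, 11 in Hyp and 11 in Hyp + M2-Exo. Of 14 epithelial markers tested in Hyp against LPS, 11 were lower and 3 higher, with a median log2 fold change of -0.91, and Krt19 had a mean of 500.0 CPM in LPS and 739.8 CPM in Hyp where Nkx2-1 had 172.2 and 39.4 CPM. Sftpc, a surfactant gene of AT II cells, was at 22.3 CPM in LPS and 11.3 CPM in Hyp. Sftpb, another surfactant gene, went the other way, at 1.498 CPM in LPS and 4.633 CPM in Hyp. Sftpa1, Sftpd and Epcam were below 1 CPM in each group, and Cldn7 had no count. Of 24 macrophage markers, 15 were above 1 CPM in LPS, 16 in LPS + M2-Exo, 15 in Hyp and 14 in Hyp + M2-Exo. Their summed level was 545.1 to 608.9 CPM in LPS, 433.4 to 490.1 CPM in LPS + M2-Exo, 152.2 to 155.9 CPM in Hyp and 115.7 to 171.7 CPM in Hyp + M2-Exo. Csf1r, the receptor that macrophages need to live, had group means of 107.1 CPM in LPS, 84.8 CPM in LPS + M2-Exo, 19.3 CPM in Hyp and 18.1 CPM in Hyp + M2-Exo, and Ptprc, the pan-leukocyte marker, of 50.0, 36.5, 8.78 and 7.58 CPM. Of 19 macrophage markers tested in Hyp against LPS, 14 were lower and 4 higher, and Mertk, an uptake receptor for dying cells, went the other way from Csf1r, at 1.26 CPM in LPS and 4.74 CPM in Hyp. Chil3 and Retnla, which mark M2 macrophages of the mouse, had no count in any group. Fewer cells of a type and less RNA per cell cannot be told apart in such bulk libraries, and the part of the macrophage markers in the results that follow was not tested.

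All 10 genes were expressed in every library, with counts from 165 for Gch1 in an LPS + M2-Exo library to 7978 for Slc3a2 in a Hyp library, and all 10 passed the filter on low counts in each comparison. To compare genes with each other, the deposited FPKM (fragments per kilobase of gene length, scaled to the depth of the library) were used, which divide by the authors' gene length. In LPS, Gsr was the highest at 74.4 ± 0.709 FPKM (SD, n = 3), followed by Gclc at 33.3 ± 2.61, Gpx4 at 24.6 ± 1.07 and Slc3a2 at 19.4 ± 1.10 FPKM. Aifm2 at 8.24 ± 0.456 FPKM and Gclm at 5.82 ± 1.60 FPKM came next. Gch1 at 3.87 ± 0.383 FPKM and Gss at 3.65 ± 0.426 FPKM overlapped in their libraries, and Slc7a11 at 2.96 ± 0.158 and Dhodh at 2.15 ± 0.0963 FPKM were the lowest. In Hyp 3 genes stood higher in the order. Slc3a2 lay above Gpx4 and Gclc, at 50.2 ± 0.747 FPKM against 44.5 ± 0.960 FPKM for Gclc. Gch1 lay just under Gpx4, at 22.8 ± 0.518 against 24.6 ± 0.748 FPKM. Slc7a11 lay above Gclm and Gss, at 7.62 ± 0.157 FPKM against 5.82 ± 0.396 FPKM for Gclm. With M2-Exo, Slc3a2 and Gclc overlapped in hyperoxia, as did Gpx4 and Gch1. The length that the FPKM imply for Gch1 is 2775 bases, whereas its exons in GENCODE M21 cover 6251 bases, and for Gpx4 it is 2805 against 1724 bases, so the order of the genes rests on the authors' lengths.

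**Figure D1:**
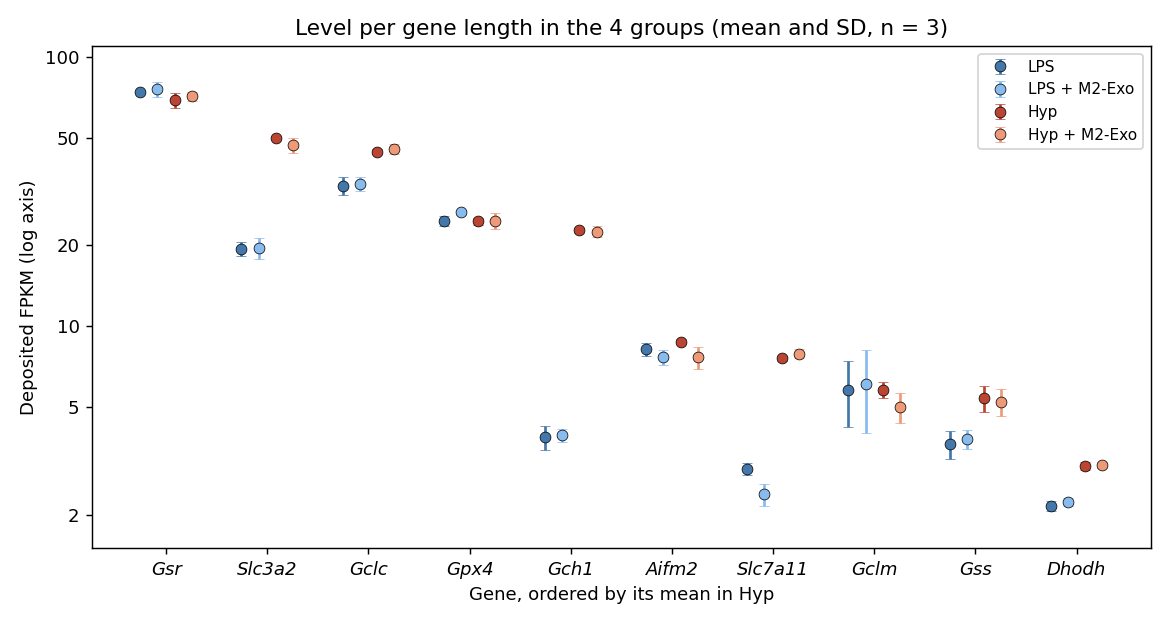
Deposited FPKM (log axis) of the 10 genes in the 4 groups, ordered by the mean in Hyp; points are means and bars are SD of 3 libraries. Gsr is the highest in each group and Dhodh the lowest, and Gch1, Slc3a2 and Slc7a11 lie visibly higher in the Hyp groups than in the LPS groups.

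The first question of the design was whether M2-Exo changed these genes within an injury. By the quasi-likelihood test of edgeR with Benjamini-Hochberg adjustment over all genes tested, 0 of the 10 passed an adjusted p of 0.05 in LPS + M2-Exo against LPS, where 0.187% of 13353 genes did. In Hyp + M2-Exo against Hyp it was also 0 of 10, with 0.101% of 13815 genes called. At an unadjusted p under 0.05 there were 2 of the 10 in the LPS pair, Slc7a11 and Gpx4, where 11.1% of all genes reached it, and 1 in the Hyp pair, Aifm2, where 8.48% did. DESeq2 and limma on log2 FPKM also called 0 of the 10 in both. The median log2 fold change of the 10 was 0.03 in the LPS pair and -0.01 in the Hyp pair, and the median size of change was 0.061 and 0.047, beside 0.073 and 0.075 over all genes. In each pair 2 of the 10 genes did not overlap between the groups, Gpx4 and Slc7a11 in LPS and Slc3a2 and Aifm2 in Hyp, where 17.2% and 16.0% of all genes did not. Whether M2-Exo acted differently in the 2 injuries was tested as an interaction over all 12 libraries, and it was called for 0 of the 10 by edgeR (0.0352% of 14187 genes), with 1 at an unadjusted p under 0.05, where 9.78% of all genes reached it. DESeq2 called 1 of the 10, beside 67 of all 10328 genes, and the gene was Slc7a11 in both cases.

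**Figure D2:**
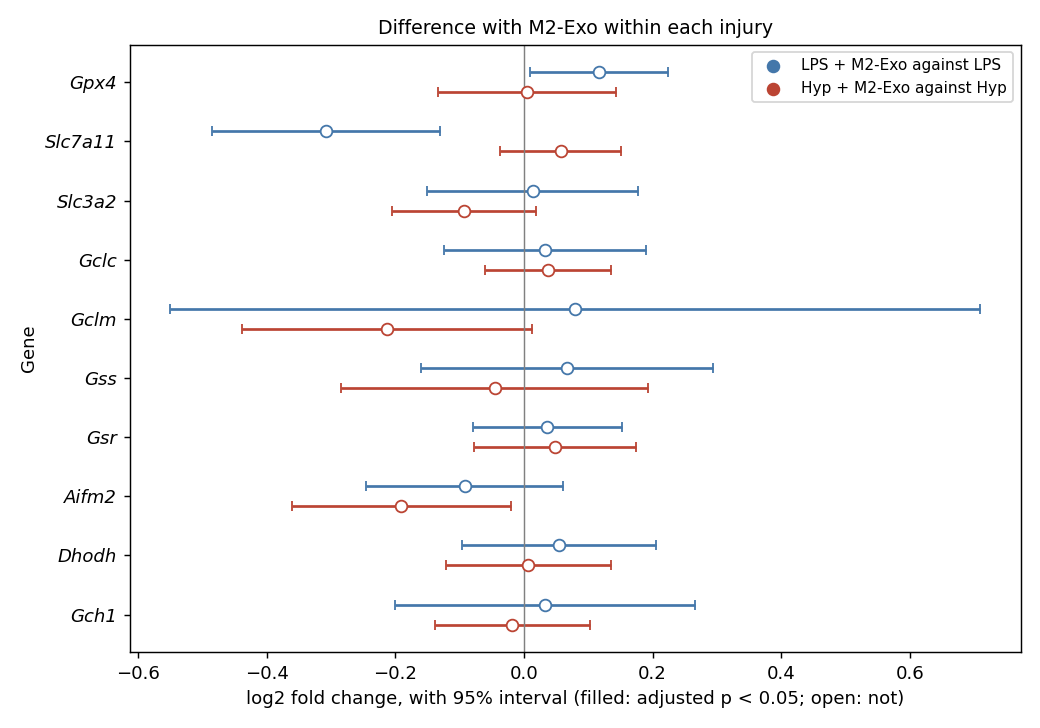
Log2 fold change with M2-Exo for the 10 genes, in LPS (blue) and in hyperoxia (red), with 95% intervals from edgeR; open circles did not pass an adjusted p of 0.05. All 20 circles are open, and 3 intervals lie clear of 0, those of Gpx4 and Slc7a11 in LPS and of Aifm2 in hyperoxia.

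The second question was how the injuries differed. In Hyp against LPS 7 of the 10 genes passed an adjusted p of 0.05. Gch1, Slc3a2, Slc7a11, Gss, Dhodh and Gclc were higher in Hyp and Gsr was lower. Of all 13805 genes tested, 75.8% passed, 38.0% higher and 37.8% lower, so 7 of 10 is near the background share. The groups did not overlap for 8 of the 10, where 78.8% of all genes did not. The median log2 fold change was 0.37, beside 0.01 over all genes. In Hyp + M2-Exo against LPS + M2-Exo 8 of the 10 passed, with the same 6 higher and with Gpx4 and Gsr lower, where 73.7% of 13660 genes passed, 37.1% higher and 36.5% lower. There the groups did not overlap for 7 of the 10, against 77.0% of all genes, and the median was 0.35. When libraries were scaled by their total count alone, the median over all genes in Hyp against LPS moved from 0.01 to 0.10, and small differences between the injuries are to be read against that shift.

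**Figure D3:**
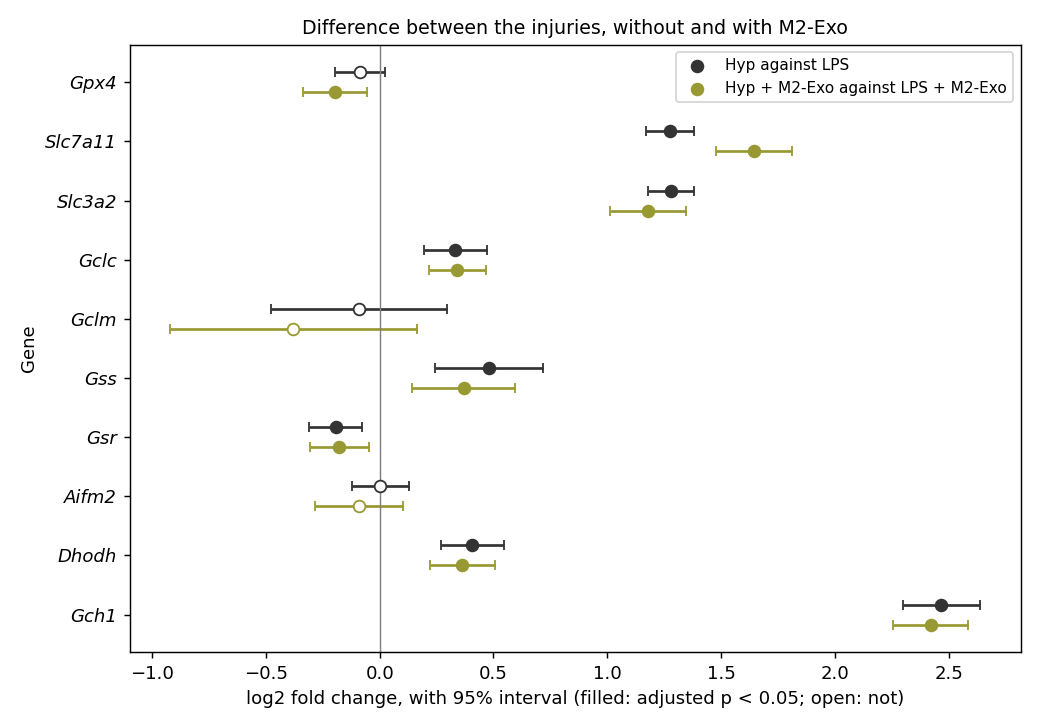
Log2 fold change between the injuries for the 10 genes, without M2-Exo (black) and with it (olive), with 95% intervals from edgeR; filled circles passed an adjusted p of 0.05. Gch1 lies farthest to the right at 2.47 and 2.42, Slc7a11 and Slc3a2 lie between 1.18 and 1.64, and Gclm and Aifm2 are open in both.

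Gpx4 (ENSMUSG00000075706, chr10:80047166-80056439 of GRCm38, plus strand) lay within a narrow range. Its levels were 70.7, 73.9 and 68.3 CPM in LPS and 77.0, 75.5 and 78.4 CPM in LPS + M2-Exo. In hyperoxia they were 67.9, 68.0 and 64.2 CPM without M2-Exo and 71.6, 67.7 and 62.3 CPM with it. The 3 LPS + M2-Exo libraries were above the 3 LPS libraries, whereas the Hyp groups overlapped. The 3 Hyp libraries lay just under the 3 LPS libraries. In LPS the log2 fold change with M2-Exo was 0.12 (SE 0.046, 95% interval 0.01 to 0.22), which had an unadjusted p of 0.0366 and an adjusted p of 0.411 by edgeR. Over the 14 alternatives that adjusted p ranged from 0.366 to 0.855. In hyperoxia the log2 fold change was 0.01 (interval -0.13 to 0.14, adjusted p = 0.981). The difference between these effects was -0.11 (interval -0.27 to 0.06, adjusted p = 0.699). Hyp against LPS gave a log2 fold change of -0.09 (interval -0.20 to 0.02, adjusted p = 0.122), which became 0.0010 when libraries were scaled by total count alone and 0.0014 on FPKM. With M2-Exo the difference between the injuries was -0.20 (interval -0.34 to -0.06, adjusted p = 0.0183). It did not pass without LPS + M2-Exo replicate 3 (adjusted p = 0.0549) or without Hyp + M2-Exo replicate 3 (adjusted p = 0.0553), and also not with total count scaling (-0.11, adjusted p = 0.147). Of the 75-base stretches of its transcripts, 29.8% also occur in the transcripts of other genes, mainly the pseudogene Gpx4-ps2, and how such reads were counted is not given in the sources used here.

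**Figure D4:**
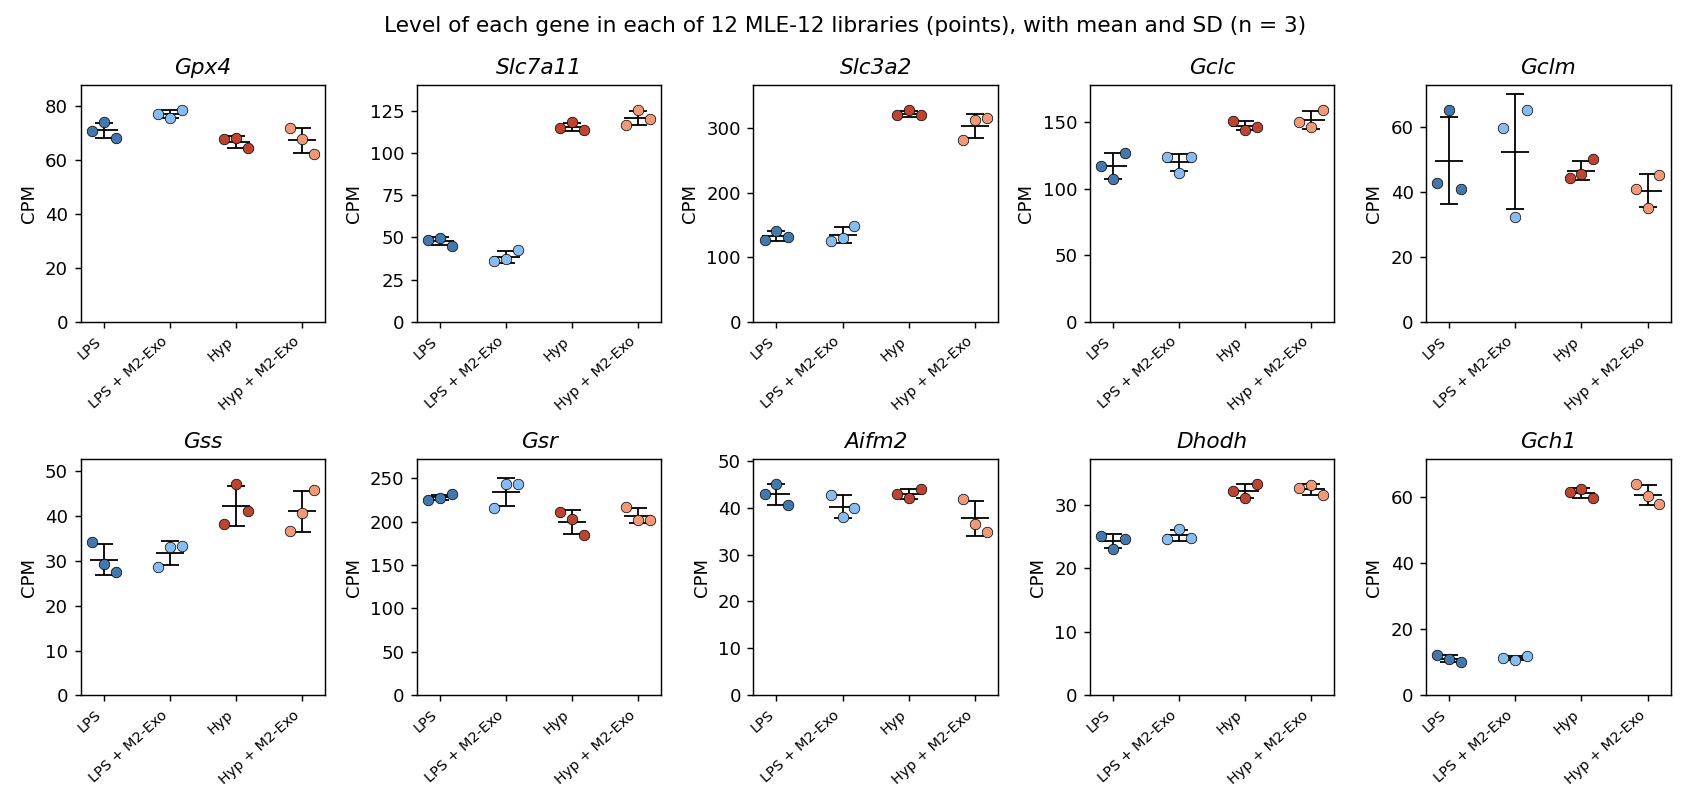
CPM of each of the 10 genes in each of the 12 libraries (points), with the mean (long bar) and SD (whiskers) of the 3 libraries of a group; each panel starts at 0 and has its own scale. Gch1, Slc7a11 and Slc3a2 separate the Hyp groups from the LPS groups without overlap, whereas Gclm scatters widely in both LPS groups.

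Slc7a11 (ENSMUSG00000027737, chr3:49892526-50443614, minus strand) had levels of 48.6, 49.6 and 45.1 CPM in LPS and 36.0, 37.2 and 42.6 CPM in LPS + M2-Exo. In hyperoxia the levels were 115.0, 118.4 and 113.8 CPM without M2-Exo and 116.8, 125.5 and 120.4 CPM with it. All libraries of LPS + M2-Exo lay below those of LPS, the Hyp groups overlapped, and every hyperoxia library lay above every LPS library. The log2 fold change with M2-Exo in LPS was -0.31 (SE 0.077, interval -0.49 to -0.13), which had an unadjusted p of 0.00407 but an adjusted p of 0.226 by edgeR. The adjusted p ranged from 0.0843 with DESeq2 to 0.542 without LPS replicate 2, and the log2 fold change from -0.39 to -0.26 over the same 14 alternatives. In hyperoxia it was 0.06 (interval -0.04 to 0.15, adjusted p = 0.690). The difference of the effects was 0.37 (SE 0.087, interval 0.18 to 0.56), with an unadjusted p of 0.00117 and an adjusted p of 0.243 by edgeR, and DESeq2 gave an adjusted p of 0.0294. Between the injuries Slc7a11 was 2.42-fold higher in Hyp than in LPS (log2 fold change 1.28, SE 0.046, adjusted p = 1.51e-07) and 3.13-fold higher in Hyp + M2-Exo than in LPS + M2-Exo (1.64, SE 0.072, adjusted p = 4.65e-07). Of all genes tested, 6.77% had a log2 fold change at least as high in Hyp against LPS. The summed macrophage markers given above were lower in LPS + M2-Exo than in LPS and lower in Hyp than in LPS, and their part in these differences was not tested.

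Slc3a2 (ENSMUSG00000010095, chr19:8706882-8723369, minus strand), the partner of Slc7a11 and of other amino acid transporters, had levels of 126.0, 140.6 and 131.6 CPM in LPS and 124.5, 129.7 and 147.8 CPM in LPS + M2-Exo, which overlapped. In Hyp the levels were 319.9, 327.8 and 320.0 CPM and in Hyp + M2-Exo 281.9, 312.4 and 316.2 CPM, the latter all below the former. M2-Exo gave a log2 fold change of 0.01 in LPS (interval -0.15 to 0.18, adjusted p = 0.969) and -0.09 in hyperoxia (interval -0.20 to 0.02, adjusted p = 0.607). The gene was 2.43-fold higher in Hyp than in LPS (log2 fold change 1.28, SE 0.044, adjusted p = 1.18e-07) and 2.26-fold higher with M2-Exo in both (1.18, SE 0.073, adjusted p = 2.39e-06). Both chains of system xc- differed between Hyp and LPS by nearly the same fold. The ratio of their FPKM, Slc3a2 over Slc7a11, was 6.57 ± 0.398 (SD, n = 3) in LPS and 6.59 ± 0.0516 in Hyp. It was 8.20 ± 0.0260 in LPS + M2-Exo and 5.93 ± 0.255 in Hyp + M2-Exo. The ratio was not tested.

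The promoters of the genes with the largest differences between the injuries, and of Gclm, are shown as the sequence next to these results. RefSeq promoters of GRCm38.p6, 250 bases before to 50 after a start, were at hand for 7 of the 10 genes. They were searched on both strands for TGATGNAA, the C/EBP-ATF response element, and for TGACNNNGC, the core of the antioxidant response element. Capitals mark the matches, and each sequence is written along the gene's own strand.

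Slc7a11, chr3:50443564-50443863, minus strand: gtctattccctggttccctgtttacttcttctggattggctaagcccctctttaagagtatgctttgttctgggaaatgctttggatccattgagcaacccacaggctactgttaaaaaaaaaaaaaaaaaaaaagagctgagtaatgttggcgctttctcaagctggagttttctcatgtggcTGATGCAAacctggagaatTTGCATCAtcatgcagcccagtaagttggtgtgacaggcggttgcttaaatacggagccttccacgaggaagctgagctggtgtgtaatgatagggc

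Slc3a2, chr19:8713848-8714147, minus strand: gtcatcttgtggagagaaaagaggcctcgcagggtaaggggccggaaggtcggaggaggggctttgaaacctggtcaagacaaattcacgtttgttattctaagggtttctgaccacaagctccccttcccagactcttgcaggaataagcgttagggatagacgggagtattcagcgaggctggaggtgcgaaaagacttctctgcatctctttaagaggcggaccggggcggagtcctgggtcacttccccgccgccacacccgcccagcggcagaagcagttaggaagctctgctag

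Gch1, chr14:47189364-47189663, minus strand: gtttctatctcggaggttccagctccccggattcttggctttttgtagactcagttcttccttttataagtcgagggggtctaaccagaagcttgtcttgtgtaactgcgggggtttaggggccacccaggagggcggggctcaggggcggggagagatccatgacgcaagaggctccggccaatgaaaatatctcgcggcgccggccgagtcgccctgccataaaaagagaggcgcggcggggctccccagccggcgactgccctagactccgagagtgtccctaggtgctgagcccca

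Gclm, chr3:122245307-122245606, plus strand: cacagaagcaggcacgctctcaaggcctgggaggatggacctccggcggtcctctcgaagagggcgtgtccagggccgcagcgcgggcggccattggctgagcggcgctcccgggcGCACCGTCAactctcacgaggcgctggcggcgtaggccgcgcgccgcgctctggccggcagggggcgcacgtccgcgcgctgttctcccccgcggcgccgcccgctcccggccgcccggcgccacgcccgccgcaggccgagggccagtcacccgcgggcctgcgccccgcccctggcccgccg

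TGATGNAA occurred in the Slc7a11 window only among the 7 genes, as TGATGCAA 66 bases before the start and as TTGCATCA on the other strand 47 bases before it, and 3.97% of 32851 promoters of the same length hold at least 1 match. TGACNNNGC occurred only in the Gclm window, as GCACCGTCA on the other strand 134 bases before the start, and 12.4% of all promoters hold it. The Slc3a2 and Gch1 windows held neither. The Slc3a2 window belongs to a start inside the span that the table gives for the gene. A match in letters is a description and not a binding site.

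Gclc (ENSMUSG00000032350, chr9:77754535-77794485, plus strand), the catalytic subunit of glutamate-cysteine ligase, was at 116.9, 107.7 and 127.1 CPM in LPS and at 123.7, 112.2 and 123.8 CPM in LPS + M2-Exo. It was at 151.4, 144.6 and 146.5 CPM in Hyp and at 150.3, 146.3 and 159.1 CPM in Hyp + M2-Exo. The groups with and without M2-Exo overlapped in both injuries, and the hyperoxia libraries lay above the LPS libraries throughout. M2-Exo gave a log2 fold change of 0.03 in LPS (interval -0.12 to 0.19, adjusted p = 0.904) and 0.04 in hyperoxia (interval -0.06 to 0.13, adjusted p = 0.803). Between Hyp and LPS it was 0.33 (SE 0.060, adjusted p = 0.00117), and with M2-Exo 0.34 (SE 0.054, adjusted p = 0.00055).

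Gclm (ENSMUSG00000028124, chr3:122245557-122270732, plus strand), the modifier subunit, varied most among the replicates of the 2 LPS groups. Its levels were 42.8, 65.1 and 40.9 CPM in LPS and 59.8, 32.1 and 65.1 CPM in LPS + M2-Exo, a coefficient of variation of 27.2% and 33.8%. In hyperoxia they were 44.2, 45.5 and 50.0 CPM without M2-Exo and 41.0, 35.0 and 45.1 CPM with it. LPS replicate 2 stood above the other two libraries of its group, and LPS + M2-Exo replicate 2 stood below both of its neighbours. In LPS the log2 fold change with M2-Exo was 0.08, with an interval from -0.55 to 0.71, so that a difference of either sign could not be resolved (adjusted p = 0.949). In hyperoxia it was -0.21 (interval -0.44 to 0.01, adjusted p = 0.596). Neither comparison between the injuries passed, at -0.09 (adjusted p = 0.636) and, with M2-Exo, -0.38 (adjusted p = 0.177). Without LPS + M2-Exo replicate 2 the latter was -0.64 with an adjusted p of 0.00168, and without LPS replicate 2 the former was 0.15 with an adjusted p of 0.0935. Gm6061, which overlaps Gclm on the same strand, had 122 counts over all 12 libraries.

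Gss (ENSMUSG00000027610, chr2:155563181-155592810, minus strand), which completes glutathione, was at 34.1, 29.3 and 27.5 CPM in LPS and 28.7, 33.1 and 33.4 CPM in LPS + M2-Exo. It was at 38.3, 47.1 and 41.1 CPM in Hyp and 36.7, 40.7 and 45.7 CPM in Hyp + M2-Exo. M2-Exo groups overlapped their controls, and hyperoxia libraries lay above LPS libraries. The log2 fold change between Hyp and LPS was 0.48 (SE 0.10, adjusted p = 0.00299), and 0.37 with M2-Exo (SE 0.098, adjusted p = 0.00881). With M2-Exo it was 0.07 in LPS (adjusted p = 0.856) and -0.05 in hyperoxia (adjusted p = 0.907). Acss2 overlaps Gss on the opposite strand and had 251 to 527 counts per library, where Gss had 463 to 1074, and whether the counting used the strand is not given in the sources used here.

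Gsr (ENSMUSG00000031584, chr8:33652523-33698163, plus strand), which restores reduced glutathione with NADPH, was the member with the highest FPKM and was lower in hyperoxia. Its levels were 225.3, 227.4 and 231.2 CPM in LPS and 210.6, 203.0 and 184.2 CPM in Hyp, without overlap. They were 215.4, 242.9 and 243.1 CPM in LPS + M2-Exo and 216.8, 202.1 and 201.6 CPM in Hyp + M2-Exo, where 1 library of each group crossed. It was at a log2 fold change of -0.19 in Hyp against LPS (SE 0.049, adjusted p = 0.00732) and -0.18 with M2-Exo (SE 0.056, adjusted p = 0.0192). With total count scaling they were -0.10 (adjusted p = 0.0764) and -0.09 (adjusted p = 0.179), past the threshold in neither. The second also did not pass without LPS + M2-Exo replicate 2 (adjusted p = 0.0608) or replicate 3 (adjusted p = 0.0637), nor without Hyp + M2-Exo replicate 2 (adjusted p = 0.0718) or replicate 3 (adjusted p = 0.0653). With M2-Exo the log2 fold change was 0.04 in LPS (adjusted p = 0.850) and 0.05 in hyperoxia (adjusted p = 0.799).

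Gch1 (ENSMUSG00000037580, chr14:47153895-47189413, minus strand) had the largest difference of the 10 genes between the injuries. Its levels were 12.1, 11.1 and 9.98 CPM in LPS and 11.3, 10.7 and 11.8 CPM in LPS + M2-Exo, against 61.6, 62.3 and 59.5 CPM in Hyp and 63.8, 60.2 and 57.8 CPM in Hyp + M2-Exo. It was 5.53-fold higher in Hyp than in LPS (95% interval 4.92 to 6.23, log2 fold change 2.47, SE 0.073, adjusted p = 6.70e-08) and 5.36-fold higher with M2-Exo in both (2.42, SE 0.071, adjusted p = 9.42e-08). Of all genes tested, 2.12% had a log2 fold change at least as high in Hyp against LPS. For M2-Exo the log2 fold change was 0.03 in LPS (interval -0.20 to 0.27, adjusted p = 0.941) and -0.02 in hyperoxia (interval -0.14 to 0.10, adjusted p = 0.929).

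Dhodh (ENSMUSG00000031730, chr8:109591343-109608673, minus strand) was at 25.2, 23.0 and 24.7 CPM in LPS, 24.7, 26.2 and 24.8 CPM in LPS + M2-Exo, 32.2, 31.0 and 33.3 CPM in Hyp, and 32.7, 33.1 and 31.5 CPM in Hyp + M2-Exo. Each hyperoxia library was above each LPS library, with a log2 fold change of 0.41 in Hyp against LPS (SE 0.060, adjusted p = 0.000372) and 0.36 with M2-Exo (SE 0.062, adjusted p = 0.000821). M2-Exo gave 0.05 in LPS (adjusted p = 0.821) and 0.01 in hyperoxia (adjusted p = 0.974).

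Aifm2 (ENSMUSG00000020085, chr10:61715263-61739260, plus strand) was at 42.9, 45.0 and 40.6 CPM in LPS and 42.7, 37.9 and 40.0 CPM in LPS + M2-Exo. It was at 42.9, 41.9 and 43.9 CPM in Hyp and 41.9, 36.6 and 34.7 CPM in Hyp + M2-Exo, where the highest library with M2-Exo lay just under the lowest without it. The log2 fold change with M2-Exo in hyperoxia was -0.19 (SE 0.074, interval -0.36 to -0.02), with an unadjusted p of 0.0328 and an adjusted p of 0.575, which ranged from 0.219 to 0.837 over the 14 alternatives. In LPS it was -0.09 (interval -0.25 to 0.06, adjusted p = 0.669). The difference between Hyp and LPS was 0.0030 (interval -0.12 to 0.13, adjusted p = 0.964), and with M2-Exo -0.09 (interval -0.29 to 0.10, adjusted p = 0.353). H2afy2, which overlaps Aifm2 on the opposite strand, had 170 to 466 counts per library, beside 585 to 1095 for Aifm2.

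The genes around this defence were read from 7 lists by role. In both M2-Exo comparisons and in the difference between them, edgeR called 0 genes of the 7 lists, where at an unadjusted p under 0.05 the counts per list ran from 0 to 9 of those tested. The most at that level were 9 of 21 NADPH genes in LPS + M2-Exo against LPS, where 11.1% of all genes reached it, with a median log2 fold change of 0.07 for the list. DESeq2 called 2 genes of the 7 lists in that comparison, beside 125 of all 11538 genes, and limma on log2 FPKM called 0. Both called 0 in the hyperoxia pair and in the interaction. The 2 were Idh1, which makes NADPH in the cytosol, at 173.9 ± 5.52 CPM in LPS and 144.7 ± 12.1 CPM in LPS + M2-Exo, and Lrp2, a receptor for selenium uptake, at 249.7 ± 21.8 and 299.3 ± 11.6 CPM.

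Between the injuries, the genes that supply cysteine were the list with the highest median. Of 24 tested in Hyp against LPS, 14 were higher and 6 lower, with a median log2 fold change of 0.67 beside 0.01 over all genes. Of the named members, Ctns, the lysosomal cystine exporter, was at 1.52, Slc1a4, a carrier of neutral amino acids, at 1.64, Mtrr, which reactivates methionine synthase, at 1.09 and Lap3, an aminopeptidase, at 0.78, all higher in Hyp, and Mat2a, which makes S-adenosylmethionine, was lower at -0.98. With M2-Exo in both arms 14 were again higher and 6 lower, and there Mat2a was lower at -0.85.

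Of 36 tested genes that use or break down glutathione, 10 were higher and 18 lower in Hyp than in LPS, with a median of -0.27. The glutathione transferases Gstm1 (log2 fold change -2.97), Gstt1 (-2.02) and Gsta4 (-1.99) and the microsomal Mgst1 (-2.04) were lower, with adjusted p of at most 2.51e-07 by edgeR. Gstm1 went from 108.8 ± 8.22 CPM in LPS to 13.8 ± 0.659 CPM in Hyp. Some transferases have near-identical relatives, between which reads may be split. With M2-Exo 9 of 35 were higher and 16 lower, and Chac1, which degrades glutathione, was higher at 2.01, as it was without M2-Exo at 2.27, with 8.02 ± 0.590 CPM in LPS + M2-Exo and 32.4 ± 1.42 CPM in Hyp + M2-Exo.

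NADPH, which Gsr and Aifm2 consume, is supplied by another list, of which 6 of 22 were higher and 11 lower in Hyp, with a median of -0.22. The higher ones included the mitochondrial folate enzymes Aldh1l2 (log2 fold change 3.26), Mthfd2 (1.75) and Shmt2 (1.62), and Idh1, the cytosolic isocitrate dehydrogenase, was lower (-1.81). With M2-Exo 4 of 21 were higher and 15 lower, and H6pd, the pentose phosphate enzyme of the endoplasmic reticulum, was lower at -1.72, the same value as without M2-Exo. Of the 20 genes listed under selenoprotein synthesis and selenium supply, 9 were higher and 6 lower, with a median of 0.08. Trit1 (1.44), which modifies the selenocysteine tRNA, and Sars (0.89), which charges it with serine, were higher. Selenop, the plasma selenium carrier (-1.35), and Selenbp1 (-4.38) were lower. With M2-Exo 9 were higher and 5 lower, and Lrp2 was higher at 1.08 with M2-Exo and at 1.33 without it.

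The partners of Aifm2 and Dhodh are the 22 genes of ubiquinone synthesis and reduction and the pyrimidine step next to Dhodh. Of these 13 were higher and 5 lower in Hyp, with a median of 0.30, and 11 were higher and 5 lower with M2-Exo. Pdss1 (1.62), which builds the side chain of ubiquinone, Coq10b (1.57), Coq9 (0.75) and Umps (0.61), the enzyme that follows Dhodh, were higher, and with M2-Exo Pdss2, the partner of Pdss1, was higher at 1.21, beside 1.01 without M2-Exo. In the tetrahydrobiopterin pathway around Gch1, Gchfr, the feedback regulator of GCH1, was lower in Hyp than in LPS at -0.61, with 9.73 ± 0.762 CPM in LPS and 6.37 ± 0.505 CPM in Hyp.

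Of 21 regulators of the defence, 9 were higher and 8 lower in Hyp than in LPS, with a median of 0.02. The stress-response factors Ddit3 (log2 fold change 3.20) and Atf3 (2.24) and the small Maf protein Mafk (1.11) were higher. Nfe2l2, which encodes NRF2, the activator of antioxidant response elements, was lower at -1.32, with 564.8 ± 15.1 CPM in LPS and 226.5 ± 7.05 CPM in Hyp. With M2-Exo 10 were higher and 7 lower, among the former Maff (1.41) and Mdm2 (1.18), which were also higher without M2-Exo (1.34 and 0.98). The shares called in these lists are to be read beside the 75.8% of all genes that passed in Hyp against LPS and the 73.7% that passed with M2-Exo.

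**Figure D5:**
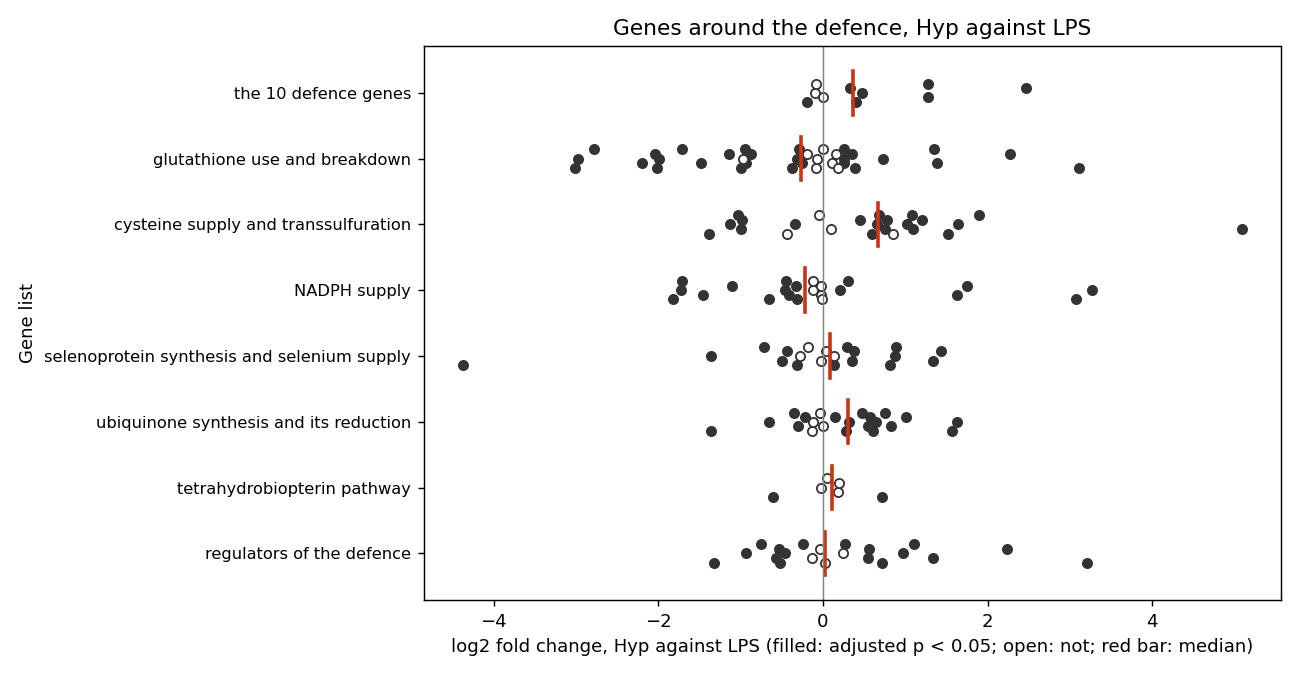
Log2 fold change in Hyp against LPS of each tested gene of the 10 defence genes and of the 7 lists around them; filled points passed an adjusted p of 0.05, open points did not, and red bars are medians. The median is highest for the cysteine supply list at 0.67 and lowest for the list of glutathione use and breakdown at -0.27.

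The genes most like Gpx4 and Slc7a11 over the 12 libraries were sought among 9751 genes by the root mean square difference of log2 CPM, centred on each gene's mean. The closest to Gpx4 were Hmgn1 at 0.043, Fh1 at 0.0447 and Sdc4 at 0.0475, where the median gene was at 0.267. The closest to Slc7a11 were Alg12 at 0.0923, Atp6v1c1 at 0.0948 and Atp6v1d at 0.0962, where the median gene was at 0.742. These values describe likeness over libraries that share their groups and were not tested.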

How the data were processed

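RNA of 12 MLE-12 libraries was sequenced. The labels name the RNeasy kit and poly(A) libraries, whereas the methods name Trizol. The authors filtered reads with Seqtk and mapped them with HISAT2 (2.0.4 in the submitters' processing notes, which also list StringTie 1.3.0, edgeR and GRCm38). The counting program, its annotation and its use of strand are not given in the sources used here. For each of 34745 genes the authors deposited raw read counts and FPKM, and the deposited FPKM followed from the counts, one gene length and the library total to a relative 0.000928. The table had 0 columns of other samples. GENCODE M21 held 34267 of the identifiers. Reads were not analysed here, so each value carries the mapping and counting of the authors.

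Samples were grouped by their labels, and 0 pairs of libraries were identical. The 10 genes, the lists around them and the rules were chosen with earlier results of these data known. Counts were tested in R 4.3.3 with edgeR 4.0.16 (filterByExpr, TMM, quasi-likelihood F test, Benjamini-Hochberg adjustment over all genes tested, threshold 0.05) on the 6 libraries of each comparison, and for the difference of the M2-Exo effects on all 12. The standard error is the log2 fold change over the root of F, and intervals are 95%. CPM were computed from the deposited counts with TMM over 12 libraries. Likeness used a prior count of 2 and genes with a mean of at least 10 CPM. Named besides the 10 genes were, for each comparison between the injuries, up to 4 genes per list with the smallest adjusted p and a mean of at least 5 CPM in either group, and the 3 genes most like Gpx4 and Slc7a11. A gene that this rule also names is not reported here. Older symbols were matched through RefSeq synonyms. Shared stretches of 75 bases were counted in GENCODE M21 transcripts.

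Alternatives were RLE factors, total count scaling, no filter, at least 10 counts in every library, DESeq2 1.42.0, the replicate number as a block, limma 3.58.1 on log2(FPKM + 0.1) for genes with a mean FPKM of at least 1, all 12 libraries in a fit, and each library left out in turn. The edgeR script was tested on simulated data with known changes.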

Additional observations from a re-analysis of the deposited data

How the results depend on the processing

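Of 390 values of the 10 genes under settings other than leaving out a library, 379 kept their direction and their side of the threshold. The interaction of M2-Exo with the injury was called by DESeq2 for 1 gene, Slc7a11 (0.37, adjusted p = 0.0294), beside 67 of all 10328 genes, against 0 by edgeR, beside 5 of 14187. Gpx4 in Hyp against LPS turned to 0.0010 with total count scaling and to 0.0014 with limma on FPKM, Gclm to 0.029 with limma on FPKM, and Aifm2 to -0.0017 with no low-count filter. Total count scaling and limma on FPKM each called 6 genes in both comparisons between the injuries, without Gsr and, with M2-Exo, without Gpx4. The cause was not tested.

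Of 360 values with 1 library left out, 321 kept direction and side. Leaving out 1 library gave 0 called genes in both M2-Exo comparisons and in the interaction, 7 in Hyp against LPS and 6 to 8 in Hyp + M2-Exo against LPS + M2-Exo. The sign of some log2 fold changes turned. In LPS + M2-Exo against LPS these ranged from -0.064 to 0.062 for Slc3a2, -0.028 to 0.091 for Gclc, -0.11 to 0.33 for Gclm, -0.0017 to 0.16 for Gss and -0.039 to 0.10 for Gch1. In Hyp + M2-Exo against Hyp they ranged from -0.041 to 0.054 for Gpx4, -0.00073 to 0.062 for Gclc, -0.13 to 0.042 for Gss, -0.0037 to 0.090 for Gsr, -0.019 to 0.033 for Dhodh and -0.054 to 0.012 for Gch1. In Hyp against LPS they ranged from -0.21 to 0.15 for Gclm and -0.036 to 0.036 for Aifm2. For the interaction they ranged from -0.055 to 0.069 for Gclc, -0.037 to 0.059 for Gsr and -0.11 to 0.020 for Gch1.

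Deviations from the group means correlated at -0.0179 to 0.0505 between samples of the same replicate number. Such values cannot show whether these samples shared a day or batch, and the labels do not say. With the replicate block the called genes numbered 0, 0, 7, 8 and 0 in the 5 comparisons, as without it. Over all genes the calls with the block were 6 in LPS + M2-Exo against LPS and 8 in Hyp + M2-Exo against Hyp, against 25 and 14, and by DESeq2 they were 125 and 37. The lowest counts were those of Gch1 in the LPS groups, at 165 to 220 per library.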
